A study of Mus musculus with 12 samples.

Results

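Glycolysis, the pentose phosphate pathway and lactate export were described here through 33 genes, chosen by symbol, of the 25904 genes in the deposited table. Each of the 33 had a single row in the table, and 30 of them passed the filter on low values and were tested. The study sequenced RNA from sorted mouse myeloid cells of the central nervous system (CNS) in 12 libraries, 3 in each of 4 groups, all from strain C57BL/6. WT microglia came from Tgfbr2 fl/fl mice without Cre, and KO microglia came from Cx3cr1CreER/+ Tgfbr2 fl/fl mice, in which Cx3cr1-driven CreER deletes the floxed gene of the type II TGF-beta receptor after tamoxifen. Both kinds of mice received 5 mg tamoxifen in 3 daily injections and were sampled 18 to 22 days later. WT and KO macrophages were the progeny of bone marrow of these 2 genotypes. That marrow had been transplanted into irradiated Cx3cr1CreER/+ R26DTA/+ recipients, whose own microglia were depleted with tamoxifen 6 weeks after the transplant, and the macrophages that took their place were sorted 18 to 22 days after that. All cells were live, Ly6C-negative and CD11b-positive, with low F4/80 in both WT groups and high F4/80 in both KO groups, so gate and genotype changed together. KO cells also carried CreER on 1 Cx3cr1 allele and WT cells did not. Cells of 1 to 5 mice were pooled for every library, so p-values measure the spread between pools. The age of the mice is not stated in the labels.

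Glucose enters a cell through facilitative transporters and is trapped by hexokinase. Glycolysis then splits it to pyruvate, which lactate dehydrogenase turns into lactate for export by monocarboxylate transporters or which pyruvate dehydrogenase feeds into the mitochondria. The pentose phosphate pathway branches off after hexokinase and supplies NADPH, which macrophages use for the oxidative burst and for antioxidant defence, and ribose for nucleotides. Hypoxia-inducible factor HIF-1 is a well-known activator of many of these genes, and microglia and macrophages are known to shift between glycolysis and mitochondrial respiration with their state of activation.

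Library depth ran from 2615404 to 6364994 reads in genes, with 0.718 to 1.6 normalized counts for each read. Replicate 1 of the KO macrophages was the shallowest library and stood apart: its mean correlation with the other 2 libraries of its group was 0.936, against 0.958 for each of those and 0.972 to 0.981 in the other groups. Tgfbr2, counted over the whole gene, was at 3172, 3026 and 2495 normalized counts in WT microglia, against 2078, 2256 and 2246 in KO microglia. In WT macrophages it was at 3427, 2997 and 3486, and in KO macrophages at 2068, 2468 and 2167. KO libraries were lower than WT libraries in both origins, but most of the signal remained. The summed level of 8 microglial markers ranged from 61420 to 79598 in WT microglia and from 18115 to 18907 in WT macrophages, against 4781 to 5261 and 5333 to 6178 in the KO cells of these origins. Tmem119, a defining marker of microglia, was at 1.96, 2.95 and 1.61 in the KO microglia, against 6265, 5734 and 5042 in the WT microglia. KO microglia are therefore called so by their origin. The sum of 8 markers of CNS and border macrophages, such as Mrc1 and Ms4a7, was between 94.2 and 117.2 in WT and between 19641 and 24062 in KO microglia. For the macrophages that sum was between 6214 and 7488 in WT and between 18655 and 18809 in KO libraries. All 8 were called higher in KO microglia and 6 in KO macrophages. Both marker sums thus moved with genotype in both origins, and their part in the KO differences below was not tested. Of 6 oligodendrocyte markers, 5 were tested; 3 were called higher and 1 lower in KO microglia and 3 higher in KO macrophages, with sums of 417 to 430.1, 493.6 to 565.9, 339 to 365.4 and 371 to 649.9 in WT and KO microglia and WT and KO macrophages. Mitochondrial transcripts made up 3.86% to 4.35% of reads in WT microglia, 5.84% to 7.68% in KO microglia, 3.18% to 5.35% in WT macrophages and 4.61% to 6.43% in KO macrophages. Ddx3y, a Y-linked gene, was at 501, 470.0 and 508 in the 3 KO microglia libraries and at 436, 653 and 540.1 in 1 library each of WT microglia, WT macrophages and KO macrophages. Xist was at 12836, 12913 and 3.1 in WT microglia, against 4.91, 1.97 and 1.61 in KO microglia. In macrophages Xist was at 23641, 20613 and 4.12 in WT and 8908, 7.85 and 16544 in KO libraries. The labels do not give the sex of the mice. Sex and genotype therefore appear partly confounded in the microglial comparison.

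In KO microglia the glucose transporter Slc2a1, the hexokinase Hk2, the phosphofructokinase activator Pfkfb3, the lactate dehydrogenase subunit Ldhb and the lactate exporter Slc16a3 each fell by 1.65 or more on the log2 scale. Pfkp, Aldoc and Gpi1 of upper glycolysis rose, so that 3 of the 7 upper glycolysis genes were called higher and 2 (Pfkl and Aldoa) lower. Of the 30 tested genes, 14 were called lower and 5 higher at a limma adjusted p below 0.05, beside 20.6% of all 12519 tested genes called lower and 21.9% called higher. Their median log2 difference was -0.34, beside -0.01 over all tested genes. In KO against WT macrophages the counts ran the other way, with 12 of 30 called higher and 5 lower, beside 16% and 15.4% of all tested genes. The median there was 0.15, beside 0.00. With each library scaled to its total reads, the macrophage split was 9 higher and 7 lower. Over all 12519 tested genes it was then 1620 and 2338, beside 2001 and 1933 in the main fit. Without replicate 1 of the KO macrophages the split was 10 higher and 5 lower, with Hk1 and Pkm no longer called. Over all tested genes it was then 1792 and 1598. These are bulk libraries, in which fewer cells of a type and less RNA per cell cannot be told apart. All groups have n = 3 libraries, log2 differences are of log2(normalized count + 1) and are given ± SE, and levels are given as normalized counts unless said to be per kilobase.

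**Figure D1:**
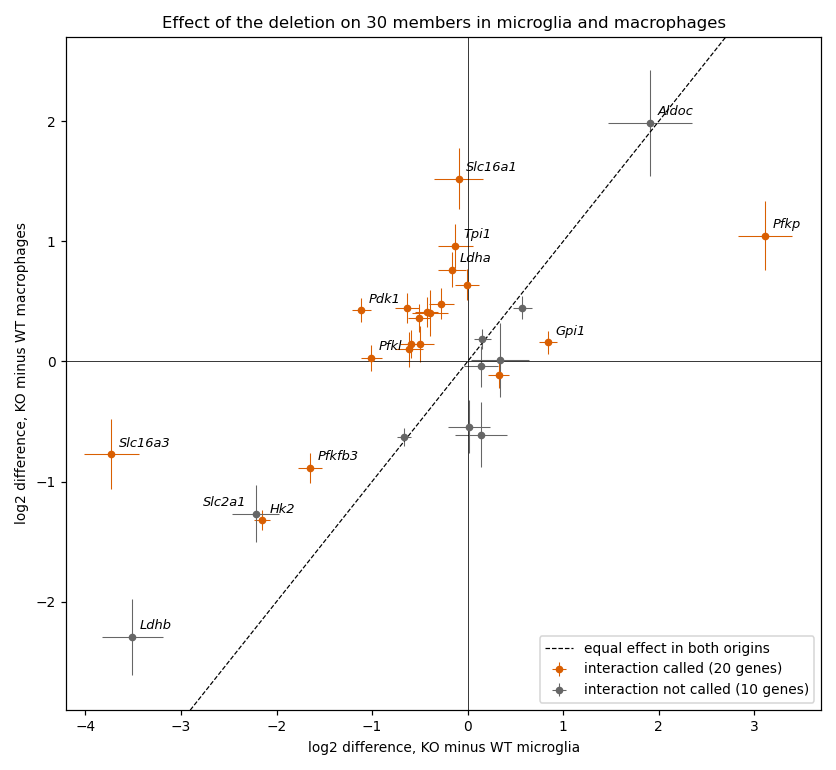
KO effect on the 30 tested genes in macrophages (vertical axis) against microglia (horizontal axis), both as log2 differences of KO minus WT, each point a gene and each bar its SE. Hk2, Slc2a1, Ldhb, Pfkfb3 and Pgd lie in the lower left quadrant, and 22 of the 30 points lie above the dashed line of equal effects.

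The 2 KO comparisons share no library. Of the 30 tested genes, 5 were called lower in both (Slc2a1, Hk2, Pfkfb3, Ldhb and Pgd) and 3 were called higher in both (Pfkp, Aldoc and G6pdx), beside 8.22% and 9.72% of all tested genes. A further 4 were called lower in microglia and higher in macrophages, beside 1.09%. The upstream windows of the 5 genes called lower in both are shown so that their sequences can be read beside their values, and that of Slc16a1, which was higher in KO macrophages and not called in microglia, is shown for contrast. The windows are from RefSeq on GRCm38.p6, 5′ to 3′ on the gene's strand, from 250 bases before to 50 bases after the annotated start. They lie at chr4:119108495-119108794 (plus strand), chr6:82774405-82774704 (minus), chr2:11553880-11554179 (minus), chr6:142507908-142508207 (minus), chr4:149166656-149166955 (minus) and chr3:104638414-104638713 (plus). Capitals mark ACGTG or GCGTG on either strand, the core letters to which HIF-1 is known to bind; matches can overlap.
Slc2a1: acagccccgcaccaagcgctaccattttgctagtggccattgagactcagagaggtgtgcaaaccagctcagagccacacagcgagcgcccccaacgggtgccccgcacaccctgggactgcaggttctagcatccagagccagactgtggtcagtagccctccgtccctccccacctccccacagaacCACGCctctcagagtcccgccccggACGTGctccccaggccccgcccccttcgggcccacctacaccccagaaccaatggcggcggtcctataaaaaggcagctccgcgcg
Hk2: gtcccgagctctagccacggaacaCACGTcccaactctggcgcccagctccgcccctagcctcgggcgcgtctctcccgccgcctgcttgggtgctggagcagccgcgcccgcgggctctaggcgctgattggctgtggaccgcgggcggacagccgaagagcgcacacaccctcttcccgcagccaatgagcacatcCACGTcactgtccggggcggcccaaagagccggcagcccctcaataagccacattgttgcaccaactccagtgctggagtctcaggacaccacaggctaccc
Pfkfb3: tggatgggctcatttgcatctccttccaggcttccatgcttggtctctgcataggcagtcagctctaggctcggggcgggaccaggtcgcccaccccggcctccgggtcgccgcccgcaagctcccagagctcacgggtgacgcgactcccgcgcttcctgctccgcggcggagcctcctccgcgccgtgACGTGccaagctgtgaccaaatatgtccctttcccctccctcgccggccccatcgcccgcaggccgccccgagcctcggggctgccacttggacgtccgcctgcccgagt
Ldhb: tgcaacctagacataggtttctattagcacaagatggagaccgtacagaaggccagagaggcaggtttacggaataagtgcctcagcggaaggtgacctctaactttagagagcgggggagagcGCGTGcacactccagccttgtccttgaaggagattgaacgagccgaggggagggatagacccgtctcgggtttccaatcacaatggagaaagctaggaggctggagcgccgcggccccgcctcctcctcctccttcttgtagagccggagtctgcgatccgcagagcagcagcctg
Pgd: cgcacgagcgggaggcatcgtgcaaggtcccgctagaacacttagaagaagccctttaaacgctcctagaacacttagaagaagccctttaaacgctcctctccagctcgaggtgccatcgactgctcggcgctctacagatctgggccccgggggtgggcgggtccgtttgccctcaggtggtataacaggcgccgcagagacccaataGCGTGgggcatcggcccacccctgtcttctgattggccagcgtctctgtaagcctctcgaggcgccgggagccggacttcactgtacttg
Slc16a1: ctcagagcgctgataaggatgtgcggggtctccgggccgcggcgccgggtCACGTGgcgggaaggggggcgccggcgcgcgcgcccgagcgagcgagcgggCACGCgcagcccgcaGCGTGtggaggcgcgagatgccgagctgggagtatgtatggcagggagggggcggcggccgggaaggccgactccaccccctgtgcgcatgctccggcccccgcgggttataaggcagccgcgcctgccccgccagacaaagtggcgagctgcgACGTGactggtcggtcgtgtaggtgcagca
The Hk2 window held 2 matches to ACGTG, the Slc2a1 window 1 to each motif, the Pfkfb3 window 1 to ACGTG, and the Ldhb and Pgd windows 1 each to GCGTG. Slc16a1, which did not fall, held 5 matches, 3 to ACGTG and 2 to GCGTG. All 33 genes had a window; 15 windows held ACGTG, 20 held GCGTG and 27 held either. Among 32544 RefSeq windows of 300 bases, 19.7% held ACGTG, 32.6% held GCGTG and 44.0% held either. A match to these letters is a description of the sequence and is neither a measured site nor a cause.

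**Figure D2:**
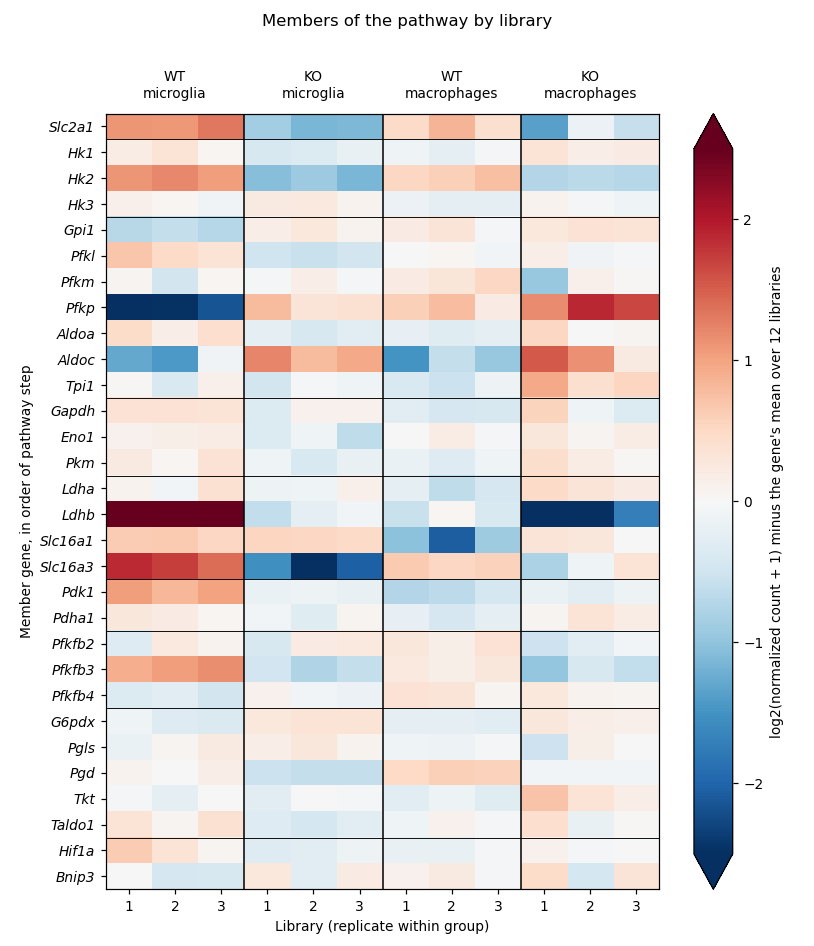
Level of the 30 tested genes in each of the 12 libraries, as log2(normalized count + 1) minus the gene's mean over the 12 libraries, with colour from -2.5 to 2.5. Slc2a1, Hk2 and Pfkfb3 are above their means in the WT microglia and below them in both KO groups, while Pfkp is below its mean in the WT microglia.

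Slc2a1 (ENSMUSG00000028645, chr4:119108711-119137983 on GRCm38) encodes GLUT1, the basal glucose transporter. It was at 182, 179 and 210.1 in WT microglia, against 45.2, 37.4 and 37.8 in KO microglia. WT macrophages had 116.5, 151 and 110.3, and KO macrophages 32.0, 75.0 and 56.0. The genotypes did not overlap in either origin, and replicate 1 was the lowest of the KO macrophages. Slc2a1 fell by 2.22 ± 0.24 in microglia (adjusted p = 1.96e-06) and by 1.27 ± 0.24 in macrophages (adjusted p = 0.00101). Without that replicate the macrophage difference was -0.93 (adjusted p = 0.000814). The difference between the 2 effects, 0.95 ± 0.34, did not pass (adjusted p = 0.0526); it did without that replicate, at 1.29 (adjusted p = 0.00064). GLUT1 is also abundant in brain endothelium. The summed level of the 6 listed vessel-cell markers present in the table was 191 to 303 in WT microglia, 102 to 130 in KO microglia, 85.2 to 92.8 in WT macrophages and 110 to 197 in KO macrophages. Of these, 4 were tested; 1 was called lower in KO microglia, and 1 was called higher and 1 lower in KO macrophages. Pecam1 carried most of the lower sum in KO microglia, at 227, 193 and 115 in WT and 26.5, 29.5 and 27.3 in KO microglia, while Kdr was at 54.6, 59.3 and 58.0 in WT and 58.9, 77.7 and 81.2 in KO libraries. None of the 6 was at 0 in all libraries of a group, and their part in the Slc2a1 result was not tested.

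Hexokinase traps glucose in the cell as glucose-6-phosphate. Hk2 (ENSMUSG00000000628, chr6:82725025-82774454), the inducible isoenzyme that binds mitochondria, was at 1746, 1873 and 1666 in WT microglia, against 387, 432 and 368 in KO microglia, a 4.45-fold lower level. In WT macrophages it was at 1168, 1226 and 1365 and in KO macrophages at 491, 510.5 and 498, a 2.50-fold lower level. The 3 libraries of each group lay close together and no WT library overlapped a KO library. The log2 differences were -2.15 ± 0.08 in microglia (adjusted p = 1.56e-11) and -1.32 ± 0.08 in macrophages (adjusted p = 2.26e-08). The fall was larger in microglia by 0.83 ± 0.12 (interaction, adjusted p = 0.000107), and in each of the 19 alternative settings both falls and their difference passed the test.

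Hk1, the constitutive hexokinase, moved in opposite directions. It was at 178, 199.7 and 162 in WT microglia, against 119, 123 and 137 in KO microglia, while macrophages had 145, 135 and 153 in WT and 200.1, 175 and 182 in KO libraries. Neither pair of groups overlapped. The difference was -0.50 ± 0.12 in microglia (adjusted p = 0.00238) and 0.36 ± 0.12 in macrophages (adjusted p = 0.0272), and the interaction was 0.87 ± 0.16 (adjusted p = 0.00115). The macrophage rise of Hk1 did not pass with libraries scaled to total reads (adjusted p = 0.0778) or without KO macrophage replicate 1 or WT macrophage replicate 1 or 2 (adjusted p = 0.0766, 0.0672 and 0.0942). Hk3, the isoenzyme typical of myeloid cells, was at 491 to 570.2 and 553 to 619 in WT and KO microglia, and 442 to 469 and 482 to 554 in WT and KO macrophages. Its KO differences were 0.15 ± 0.09 and 0.19 ± 0.09 and did not pass (adjusted p = 0.168 and 0.114).

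The makeup of the hexokinase transcripts also differed between the genotypes. Scaled to exon length, Hk2 made up 64.0% ± 1.31 (SD) of the 3 hexokinases in WT microglia and 27.3% ± 0.959 in KO microglia. The shares were 59.9% ± 2.40 in WT macrophages and 34.1% ± 1.75 in KO macrophages. Hk3 made up 31.5% ± 1.43, 66.6% ± 1.09, 35.2% ± 2.37 and 57.0% ± 1.59 in the same order, so that on this scale Hk3 was the leading hexokinase transcript in every KO library and Hk2 in every WT library. Without the scaling to length, Hk2 and Hk3 averaged 41.6% and 42.9% in KO macrophages. In replicate 3 of that group Hk2 was then ahead, at 498 against 482. Shares are given as a description and were not tested.

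**Figure D3:**
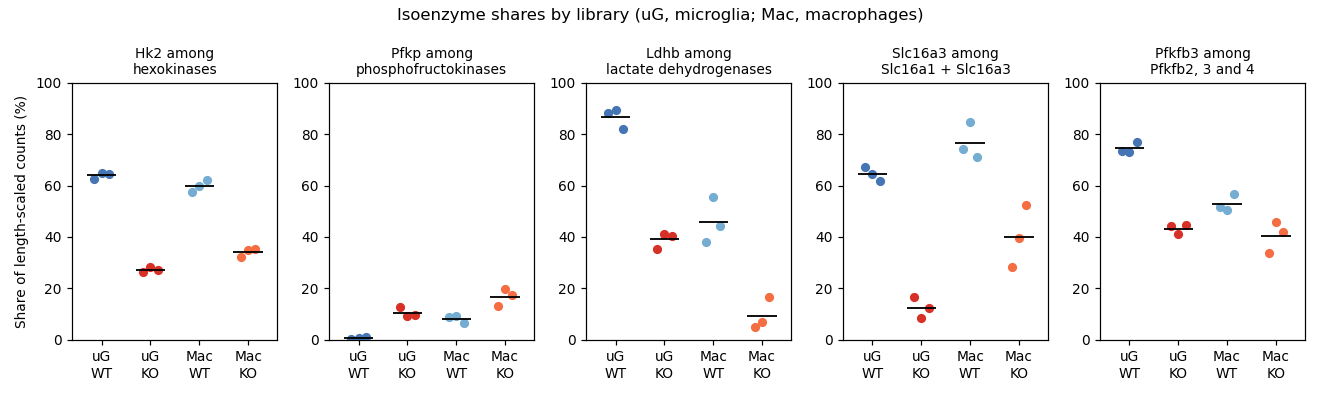
Share of 5 isoenzymes or transporters within their families, in percent of length-scaled normalized counts, for each of the 12 libraries. Hk2, Ldhb, Slc16a3 and Pfkfb3 take smaller shares in every KO library than in the WT libraries of the same origin, and Pfkp takes larger ones.

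Phosphofructokinase commits glucose to glycolysis, and 3 genes encode its subunits. Pfkl, the liver-type subunit, was at 377, 323 and 293 in WT microglia, against 164, 158 and 168 in KO microglia, and fell by 1.01 ± 0.11 (adjusted p = 1.97e-06). In macrophages it was at 230.3, 240.2 and 221 in WT and 262, 217 and 228 in KO libraries, a difference of 0.03 ± 0.11 that did not pass (adjusted p = 0.857). The interaction of 1.04 ± 0.15 passed (adjusted p = 0.000155). Pfkp, the platelet-type subunit, went the other way. It was at 3.52, 6.44 and 8.28 in WT microglia, against 70.7, 51.1 and 53.1 in KO microglia, and rose by 3.11 ± 0.29 (adjusted p = 2.91e-07). WT macrophages had 61.9, 69.9 and 46.9 and KO macrophages 92.8, 153 and 130.0, a rise of 1.05 ± 0.29 (adjusted p = 0.0116). WT microglia were thus the only group in which Pfkp was below 10 in all 3 libraries, and the rise was larger in microglia than in macrophages (interaction -2.06 ± 0.40, adjusted p = 0.00148). The macrophage rise was not called without replicate 3 of the WT macrophages (adjusted p = 0.0558) or without replicate 2 of the KO macrophages (adjusted p = 0.0523). Pfkm, the muscle-type subunit, was at 29.6 to 43.2 and 39.4 to 46.2 in WT and KO microglia, and 47.3 to 59.3 and 20.8 to 44.5 in WT and KO macrophages and was called in no comparison. The length-scaled share of Pfkp in the 3 subunits was 0.763% ± 0.356, 10.5% ± 1.83, 8.12% ± 1.48 and 16.8% ± 3.37 in that order of groups. Without the scaling to length, its share averaged 1.68%, 22.0%, 17.3% and 31.3%, so the size of the share depends on the exon length used.

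The PFKFB enzymes make and break down fructose 2,6-bisphosphate, the strongest allosteric activator of phosphofructokinase. Pfkfb3 (ENSMUSG00000026773, chr2:11471433-11554077), the isoenzyme with the highest ratio of kinase to phosphatase activity, was at 1267, 1386 and 1497 in WT microglia, against 483, 395 and 441 in KO microglia. In macrophages it was at 799, 742 and 817 in WT and 343, 509 and 439.5 in KO libraries. KO libraries were below WT libraries in both origins without overlap. Pfkfb3 fell by 1.65 ± 0.12 in microglia (adjusted p = 2.81e-08) and by 0.89 ± 0.12 in macrophages (adjusted p = 6.61e-05), and the falls differed by 0.77 ± 0.18 (adjusted p = 0.0047).

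Pfkfb4 was at 265, 282 and 245 in WT and 366, 322 and 306 in KO microglia, a rise of 0.33 ± 0.11 (adjusted p = 0.0226) that did not pass with libraries scaled to total reads (adjusted p = 0.0879). That rise was also not called without WT microglia replicate 1 or 3, or without KO microglia replicate 1 (adjusted p = 0.0514, 0.0835 and 0.107). In macrophages Pfkfb4 was at 353 to 434 in WT and 356 to 407 in KO libraries and was not called (adjusted p = 0.461). Pfkfb2 was at 40.0 to 74.1 in all 12 libraries and was called in no comparison of the main fit. Its KO macrophage libraries, at 40.0, 48.0 and 54.6, were all below its WT macrophage libraries, at 70.1, 63.5 and 74.1. That fall passed with libraries scaled to total reads (adjusted p = 0.0363) and without KO microglia replicate 1 (adjusted p = 0.0481). Of the length-scaled PFKFB transcripts, Pfkfb3 made up 74.6% ± 2.22 and 43.2% ± 2.002 in WT and KO microglia, and 53.0% ± 3.26 and 40.4% ± 6.10 in WT and KO macrophages. Without the scaling to length, its share averaged 81.0%, 52.9%, 62.4% and 50.2% in the same order.

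The remaining enzymes of upper glycolysis did not move together. Gpi1, which isomerizes glucose-6-phosphate, was at 288, 310.5 and 288 in WT microglia, against 527, 565 and 497 in KO microglia, a rise of 0.84 ± 0.09 (adjusted p = 2.97e-06). WT macrophages, at 539, 589.7 and 461, and KO macrophages, at 565, 606 and 598, overlapped each other, and their difference of 0.16 ± 0.09 did not pass (adjusted p = 0.215). Aldoa, the main aldolase, fell in microglia from 467, 379 and 453 to 291, 258 and 285 (-0.64 ± 0.13, adjusted p = 0.000764). In macrophages Aldoa rose from 294, 276 and 287 to 488, 341 and 355 (0.45 ± 0.13, adjusted p = 0.0144). The Aldoa rise in macrophages was 0.28 without replicate 1, the highest KO library (adjusted p = 0.0483). With scaling to total reads its adjusted p was 0.0599, and without WT macrophage replicate 2 it was 0.0504, so the call ended in these settings.

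Aldoc, the brain-type aldolase, is abundant in astrocytes. It was at 4.41, 3.87 and 11.4 in WT microglia, against 29.5, 21.6 and 24.1 in KO microglia, while macrophages had 3.64, 7.63 and 5.76 in WT and 36.8, 27.9 and 14.4 in KO libraries. The rises of 1.91 ± 0.44 and 1.99 ± 0.44 passed in both origins (adjusted p = 0.00244 and 0.00313). Of the 8 astrocyte markers, 4 were tested; 3 were called higher and 1 lower in KO microglia, and 2 were called higher in KO macrophages. Their summed level was 638 to 725 in WT microglia, 246 to 307 in KO microglia, 48.6 to 61.0 in WT macrophages and 141.5 to 159.7 in KO macrophages, with Gjb6 at 0 in WT microglia and in KO macrophages. Gfap, the astrocyte filament gene, was at 0, 3.87 and 2.07 in WT microglia, against 58.9, 32.4 and 44.2 in KO microglia, while macrophages had 2.73, 7.63 and 4.12 in WT and 57.6, 36.6 and 35.2 in KO libraries. Slc1a3, which made up most of the sum in WT microglia, was at 533 to 660.1 there and at 42.2 to 53.1 in KO microglia. The part of astrocyte RNA in the Aldoc result was not tested. The summed level of 9 neuronal markers also moved with genotype. It ranged from 15.9 to 27.1 in WT and from 111 to 149.5 in KO microglia. In macrophages the range was 31.9 to 55.9 in WT and 79.7 to 147 in KO libraries, and its part in the results was likewise not tested.

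Tpi1, triose-phosphate isomerase, is counted here with upper glycolysis. Its level was 128, 95.3 and 137 in WT and 90.3, 122 and 116 in KO microglia, which overlapped and were not called different (adjusted p = 0.624). In macrophages it was at 96.5, 86.4 and 115 in WT and 241.7, 166 and 181 in KO libraries, a rise of 0.96 ± 0.18 (adjusted p = 0.00096). Replicate 1 was the highest of the KO macrophages; without it the rise was 0.81 (adjusted p = 0.00269). Lower glycolysis yields ATP and pyruvate. Pkm, the pyruvate kinase of these cells, was at 306, 271 and 341 in WT and 245, 203 and 232 in KO microglia, a fall of 0.43 ± 0.12 (adjusted p = 0.0108). In macrophages Pkm was at 233, 211 and 244 in WT and 355, 298 and 268 in KO libraries, a rise of 0.41 ± 0.12 (adjusted p = 0.0192). Neither Pkm call held in every setting: the fall was lost without WT microglia replicate 3 or KO microglia replicate 2 (adjusted p = 0.0528 and 0.0577). The Pkm rise was lost without replicate 1 of the KO macrophages (adjusted p = 0.0692), without WT macrophage replicate 2 (adjusted p = 0.0776) and with scaling to total reads (adjusted p = 0.0712).

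Eno1, enolase, fell in microglia from 106, 109.5 and 112 to 77.6, 91.4 and 63.5 (-0.50 ± 0.15, adjusted p = 0.0126) and was not called in macrophages (adjusted p = 0.495). The microglial call of Eno1 was lost without KO microglia replicate 3 (adjusted p = 0.0706) and with log2 Ddx3y as a covariate (adjusted p = 0.0582). Gapdh, often used as a reference gene, was at 182, 184 and 182 in WT microglia, against 113, 154 and 154 in KO microglia, while macrophages had 118, 107 and 108 in WT and 211, 132.6 and 113 in KO libraries. Its differences of -0.40 ± 0.19 and 0.40 ± 0.19 did not pass (adjusted p = 0.11 and 0.122), although the microglial groups did not overlap. Their difference of 0.80 ± 0.27 passed (interaction, adjusted p = 0.0402). Without replicate 1 of the KO macrophages the microglial difference of Gapdh was called (adjusted p = 0.0178), and without replicate 3 the macrophage difference was (adjusted p = 0.025).

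Pgk1, phosphoglycerate kinase, and Pgam1, phosphoglycerate mutase, are required for glycolysis but were too low to test, with 94 and 54 reads over the 12 libraries. The 4 groups, in the order WT microglia, KO microglia, WT macrophages and KO macrophages, held 18, 27, 22 and 27 reads of Pgk1 and 20, 9, 12 and 13 of Pgam1. Of the 50-base windows of the annotated transcripts, 53.9% of Pgk1 and 36.2% of Pgam1 also occur in the annotated transcripts of another gene. That share was 47.2% for Bnip3, 26.0% for Eno1, 25.8% for Pkm, 25.1% for Gapdh and 20.99% for Ldhb, so the counts of these genes are uncertain, since how reads with several matches were counted is not given in the sources used here. Hk2, Hk3, Slc16a1, Slc16a3, Pdk1 and Tkt shared none of their windows.

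Lactate dehydrogenase is a tetramer of Ldha and Ldhb subunits, of which the Ldhb form favours the direction from lactate to pyruvate. Ldhb (ENSMUSG00000030246, chr6:142490249-142507957) was at 535, 532 and 391 in WT microglia, against 33.4, 43.3 and 49.0 in KO microglia. It was at 34.6, 53.4 and 39.5 in WT macrophages and at 4.80, 6.11 and 15.1 in KO macrophages. KO microglia and WT macrophages shared a range far below that of WT microglia, and KO macrophages were lower again, with no overlap. Ldhb fell by 3.51 ± 0.32 in microglia (adjusted p = 2.58e-07) and by 2.29 ± 0.32 in macrophages (adjusted p = 6.08e-05). The difference between these falls was 1.21 ± 0.45 and did not pass (adjusted p = 0.0613). It did without KO macrophage replicate 1, at 1.51, and without replicate 2, at 1.36 (adjusted p = 0.00873 and 0.0463), and with a pseudocount of 5, at 1.54 (adjusted p = 0.00478). The KO macrophage level of Ldhb rests on 31 reads over 3 libraries.

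Ldha, the form that favours lactate production, was at 148, 132.7 and 182 in WT and 129, 129.8 and 152 in KO microglia, which overlapped (adjusted p = 0.402). In macrophages Ldha was at 118, 90.2 and 105 in WT and 195, 175 and 162 in KO libraries, a rise of 0.76 ± 0.15 (adjusted p = 0.00101). The interaction of Ldha was 0.93 ± 0.21 (adjusted p = 0.00379). Of the length-scaled transcripts of both subunits, Ldhb made up 86.6% ± 4.07 and 39.0% ± 3.21 in WT and KO microglia, and 45.99% ± 8.80 and 9.40% ± 6.17 in WT and KO macrophages. Without the scaling to length, the Ldhb share averaged 75.5%, 23.3%, 29.1% and 4.77% in the same order. WT microglia were the group in which Ldhb led in all 3 libraries.

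Of the proton-linked lactate transporters, Slc16a3 encodes MCT4, the low-affinity exporter of glycolytic cells, and Slc16a1 encodes MCT1, which carries lactate in either direction. Slc16a3 (ENSMUSG00000025161, chr11:120948480-120960868) was at 196, 178 and 142 in WT microglia, against 17.7, 7.87 and 12.1 in KO microglia, a fall of 3.73 ± 0.29 (adjusted p = 4.53e-08). The KO microglia level rests on 41 reads over 3 libraries. WT macrophages had 84.7, 76.3 and 79.8 and KO macrophages 30.4, 48.9 and 67.5. All KO macrophage libraries were below all WT macrophage libraries, but the difference of -0.77 ± 0.29 did not pass (adjusted p = 0.0559). It passed by limma voom on whole reads (adjusted p = 0.044), with a pseudocount of 5 (adjusted p = 0.0384), with total-read or upper-quartile scaling (adjusted p = 0.0347 and 0.0441), without KO microglia replicate 1 or 2 (adjusted p = 0.0401 and 0.0372) and without KO macrophage replicate 3 (adjusted p = 0.0155). Without KO macrophage replicate 1 it was -0.47 (adjusted p = 0.209). The fall was larger in microglia, by 2.95 ± 0.41 (interaction, adjusted p = 8.18e-05).

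Slc16a1 (ENSMUSG00000032902, chr3:104638668-104658462) was at 79.3, 81.2 and 73.5 in WT and 74.6, 72.8 and 71.5 in KO microglia, with a difference of -0.09 ± 0.26 (adjusted p = 0.81). In macrophages it was at 24.6, 11.4 and 27.2 in WT and 64.0, 62.0 and 51.0 in KO libraries, a rise of 1.52 ± 0.26 (adjusted p = 0.000352). WT macrophages were below the other 3 groups without overlap, and the interaction was 1.62 ± 0.36 (adjusted p = 0.0041). The length-scaled share of Slc16a3 in the sum of both transporters was 64.5% ± 2.81 and 12.3% ± 4.11 in WT and KO microglia, and 76.6% ± 7.20 and 40.1% ± 12.1 in WT and KO macrophages.

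**Figure D4:**
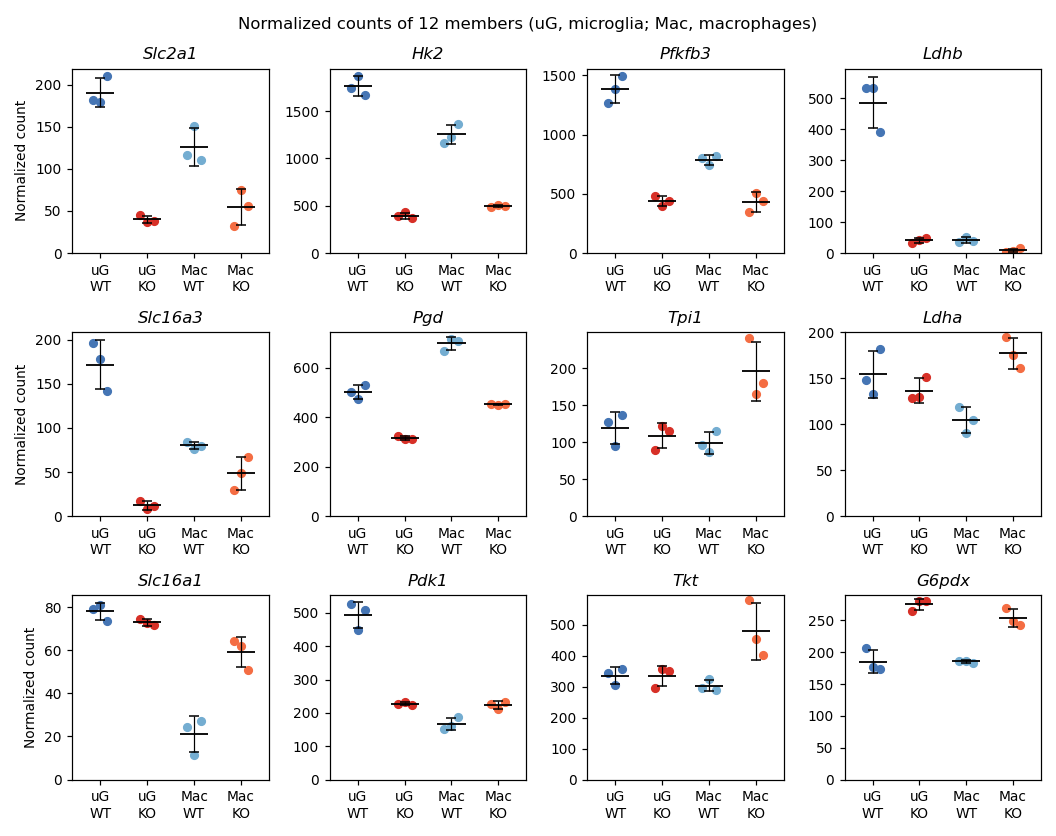
Normalized counts of 12 of the genes in the 12 libraries, shown as points, with horizontal bars at the mean of each group and error bars of 1 SD (n = 3). Slc2a1, Hk2, Pfkfb3, Ldhb and Pgd have lower KO than WT levels in both origins, and Ldha, Tpi1, Slc16a1 and Tkt have higher KO levels in the macrophages.

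Pyruvate dehydrogenase links glycolysis to the citric acid cycle, and Pdk1 encodes a kinase that switches it off. Pdk1 (ENSMUSG00000006494, chr2:71873224-71903858) was at 525, 449.6 and 508 in WT microglia, against 227, 232 and 223 in KO microglia, a fall of 1.11 ± 0.10 (adjusted p = 2.46e-07). In macrophages it rose from 152, 161 and 187 in WT to 225.7, 212 and 233 in KO libraries (0.43 ± 0.10, adjusted p = 0.00476). WT microglia were highest, WT macrophages lowest, and the 2 KO groups shared 1 range between them. The interaction of 1.54 ± 0.14 had the smallest adjusted p of the 30 genes (1.34e-06). Pdha1, the X-linked catalytic subunit of the complex, was at 177, 169 and 151 in WT and 139, 118 and 154 in KO microglia and was not called there (adjusted p = 0.102). In macrophages Pdha1 was at 127, 109 and 123 in WT and 152, 186 and 165 in KO libraries, a rise of 0.48 ± 0.13 (adjusted p = 0.0112) that was 0.49 with log2 Ddx3y as a covariate (adjusted p = 0.0159). Without KO macrophage replicate 2 the adjusted p of the Pdha1 rise was 0.0503.

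In the oxidative arm of the pentose phosphate pathway, G6pdx and Pgd encode the 2 dehydrogenases that make NADPH, and they changed in opposite directions. G6pdx was at 206, 176 and 173 in WT microglia, against 265, 280.2 and 279.7 in KO microglia, while macrophages had 186, 187 and 184 in WT and 269, 249.6 and 242.02 in KO libraries. It rose without overlap by 0.57 ± 0.10 in microglia (adjusted p = 0.000179) and by 0.45 ± 0.10 in macrophages (adjusted p = 0.00252). G6pdx is X-linked, and with log2 Ddx3y as a covariate the rises were 0.61 and 0.44 (adjusted p = 0.000611 and 0.00466). Pgd (ENSMUSG00000028961, chr4:149149991-149166771) was at 504, 474 and 533 in WT microglia, against 325, 315 and 312 in KO microglia, while macrophages had 669, 718 and 710.3 in WT and 453, 452 and 453 in KO libraries. Pgd fell by 0.66 ± 0.07 in microglia (adjusted p = 2.95e-06) and by 0.63 ± 0.07 in macrophages (adjusted p = 1.45e-05). The difference between these falls was 0.04 ± 0.11 (adjusted p = 0.829), with a 95% interval from -0.19 to 0.27. Pgls, the lactonase between these enzymes, was at 64.0 to 112 in all 12 libraries and was called in no comparison.

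In the non-oxidative arm, Tkt encodes transketolase and Taldo1 transaldolase, which return pentoses to glycolysis. Tkt was at 345, 304 and 357 in WT and 297, 357 and 349.7 in KO microglia, which overlapped (-0.01 ± 0.13, adjusted p = 0.98). In macrophages it rose from 296, 324 and 289.7 in WT to 581, 453 and 401 in KO libraries (0.64 ± 0.13, adjusted p = 0.00128), with replicate 1 highest and a rise of 0.49 without it (adjusted p = 0.00244). Taldo1 fell in microglia from 187, 153 and 191 to 116.9, 108 and 121 (-0.61 ± 0.15, adjusted p = 0.00357) and was at 137, 158 and 142 in WT and 195, 128 and 150.1 in KO macrophages, which overlapped (adjusted p = 0.645).

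Hif1a encodes the oxygen-regulated subunit of HIF-1, whose protein is controlled mainly by degradation. Its transcript was at 779, 639 and 529 in WT microglia, against 404, 416 and 459.8 in KO microglia, a fall of 0.59 ± 0.12 (adjusted p = 0.000742). Macrophages had 444, 444 and 495 in WT and 539, 495 and 498 in KO libraries, a difference of 0.15 ± 0.12 that did not pass (adjusted p = 0.359). Bnip3, a mitophagy receptor and known HIF-1 target, was at 14.0 to 27.2 in all 12 libraries and was called in no comparison. Fbp1, the gluconeogenic fructose bisphosphatase that opposes phosphofructokinase, had 3 reads in all 12 libraries together and was not tested.

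The KO effect itself differed between the 2 origins for 20 of the 30 tested genes. Of these, 17 had a higher KO minus WT difference in macrophages than in microglia and 3 (Gpi1, Pfkp and Pfkfb4) a lower one, beside 13% and 12.9% of all tested genes. The median interaction was 0.75, beside 0.00 over all tested genes. Macrophages also came from irradiated, transplanted and microglia-depleted recipients, so cell origin cannot be told apart from these treatments. The 17 include 4 genes called lower in KO microglia and higher in KO macrophages (Hk1, Aldoa, Pkm and Pdk1), 5 called lower in microglia and not in macrophages (Pfkl, Eno1, Slc16a3, Taldo1 and Hif1a), and 5 called higher in macrophages and not in microglia (Tpi1, Ldha, Slc16a1, Pdha1 and Tkt). The others were Hk2, Pfkfb3 and Gapdh. Among the genes whose KO effect was not shown to differ between origins were Slc2a1, Ldhb, Aldoc, G6pdx and Pgd. Some of these calls depended on single libraries or on the setting. The interactions of Eno1, Gapdh, Pfkfb4 and Taldo1 were not called when any of 8, 7, 8 and 3 of the 12 libraries, respectively, was left out, with adjusted p up to 0.0842, 0.109, 0.117 and 0.0551. For Taldo1 those libraries were WT microglia replicate 1, KO microglia replicate 2 and WT macrophage replicate 1. With all libraries kept but scaled to total reads, these 4 interactions did not pass either (adjusted p = 0.0906, 0.0679, 0.0787 and 0.0559). Those of Eno1, Gapdh and Taldo1 did not pass with log2 Ddx3y as a covariate (adjusted p = 0.115, 0.134 and 0.0873). Upper-quartile scaling ended the calls of Eno1 and Gapdh (adjusted p = 0.0531 and 0.051), and no filter those of Eno1 and Pfkfb4 (adjusted p = 0.0631 and 0.09).

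In WT macrophages against WT microglia, 15 of the 30 genes were called lower and 4 higher, beside 20.2% and 19.2% of all tested genes, and the median was -0.30. This comparison shares its WT microglia libraries with the microglial KO comparison, and its WT macrophage libraries with the macrophage KO comparison. All 3 hexokinases and all 4 genes of lactate metabolism were called lower. Ldhb differed by -3.49 ± 0.32 (adjusted p = 4.17e-07), Slc16a1 by -1.93 ± 0.26 (adjusted p = 2.37e-05) and Slc16a3 by -1.08 ± 0.29 (adjusted p = 0.00842). Pdk1 differed by -1.56 ± 0.10 (adjusted p = 9.62e-09) and Pfkfb3 by -0.81 ± 0.12 (adjusted p = 8.91e-05). The differences of Hk2, Hk3 and Hk1 were smaller, at -0.49 ± 0.08, -0.24 ± 0.09 and -0.32 ± 0.12 (adjusted p = 0.000257, 0.0408 and 0.0424), and those of Hk3 and Hk1 were not called without any of 7 and 8 of the 12 libraries, with adjusted p up to 0.154 and 0.169. The 4 genes that were higher in WT macrophages were Pfkp at 3.14 ± 0.29, Gpi1 at 0.83 ± 0.09, Pfkfb4 at 0.61 ± 0.11 and Pgd at 0.47 ± 0.07 (adjusted p = 4.12e-07, 4.64e-06, 0.000319 and 0.000125). Slc2a1, at -0.60 ± 0.24, did not pass (adjusted p = 0.0611), although the groups did not overlap; it passed by limma voom on whole reads (adjusted p = 0.00394).

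In KO macrophages against KO microglia, 11 genes were called higher and 1 lower, beside 5.45% and 5.05% of all tested genes, with a median of 0.28. Slc16a3 was higher by 1.88 ± 0.29 (adjusted p = 0.00041), Pfkp by 1.07 ± 0.29 (adjusted p = 0.0241), Tpi1 by 0.83 ± 0.18 (adjusted p = 0.00732) and Pgd by 0.51 ± 0.07 (adjusted p = 0.000245). Hk1, Hk2, Pfkl, Aldoa, Eno1, Pkm and Tkt were higher by 0.34 to 0.55. Ldhb was the gene called lower, at -2.28 ± 0.32 (adjusted p = 0.000166). The number called higher was 6 without KO microglia replicate 3 and 6 with log2 Ddx3y as a covariate, which was high in all 3 KO microglia libraries and in 1 KO macrophage library. Over all tested genes the number called higher was 527 and 496 in these settings, beside 682 in the main fit. Leaving out a KO library ended the call of Pkm, Eno1, Pfkp, Hk2, Aldoa or Tkt in 1 or more cases, with adjusted p up to 0.158, 0.141, 0.105, 0.0824, 0.0944 and 0.0949. Pdk1 (-0.02 ± 0.10), Pfkfb3 (-0.05 ± 0.12) and G6pdx (-0.12 ± 0.10) were not called between the KO groups.

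On the scale of normalized counts per kilobase of exon, the order of the genes within a cell differed between genotypes. Each length was the union of all annotated exons, and the order is uncertain where windows are shared with other genes. That share was 53.9% for Pgk1, 47.2% for Bnip3 and 36.2% for Pgam1. It was 26.0% for Eno1, 25.8% for Pkm, 25.1% for Gapdh and 20.99% for Ldhb. A low rank of these genes is therefore not established. In WT microglia Ldhb (309.6 ± 52.3, SD) and Hk2 (295 ± 17.5) led and were within 1 SD of each other, followed by Pfkfb3 (183 ± 15.2), Aldoa (148.8 ± 16.3) and Hk3 (145 ± 11.0), of which Aldoa and Hk3 did not differ beyond their spread. In KO microglia Hk3 led with 161 ± 9.81, followed by Aldoa (95.4 ± 6.05), G6pdx (89.3 ± 2.78) and Gpi1 (82.1 ± 5.32), with gaps between neighbours of these 3 that were larger than either SD, while Hk2 was at 66.3 ± 5.46 and Ldhb at 26.7 ± 5.04. In WT macrophages Hk2 led with 209.9 ± 16.9, ahead of Hk3 (123 ± 3.79), Pgd (108 ± 4.08) and Pfkfb3 (104 ± 5.18), of which Pgd and Pfkfb3 did not differ beyond their spread. In KO macrophages Hk3 (140.2 ± 9.80) and Aldoa (136 ± 27.9) led and did not differ beyond their spread.

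A further 93 genes were taken from 6 lists, of which 86 were in the table and 79 were tested. The lists covered sugar entry, side steps of glycolysis, pyruvate and lactate handling, other pentose phosphate and NADPH genes, glycogen and the hypoxia response. In KO microglia 13 of the 79 were called higher and 18 lower, and in KO macrophages 14 higher and 6 lower. Of all tested genes, 21.9% and 20.6% were called higher and lower in KO microglia and 16% and 15.4% in KO macrophages, and the counts of the single lists below are to be read against these shares. The largest change was in Slc2a5, which encodes the fructose transporter GLUT5. It was at 1586, 1634 and 1508 in WT microglia, against 2.95, 1.97 and 6.43 in KO microglia, a fall of 8.47 ± 0.59 (adjusted p = 1.14e-08), and at 15.5, 3.81 and 23.9 in WT and 1.60, 3.49 and 0 in KO macrophages. Every WT microglia library was thus far above every other library. Slc2a5 was also called lower in KO macrophages. Its levels outside WT microglia rest on few reads, so the sizes of its falls are uncertain. Slc2a3, the high-affinity glucose transporter GLUT3, went the other way in microglia, from 41.4, 27.1 and 34.2 in WT to 149.3, 194 and 207 in KO (2.39 ± 0.22, adjusted p = 3.76e-07). In macrophages Slc2a3 was at 70.1, 77.5 and 95.5 in WT and 46.4, 79.4 and 73.3 in KO libraries, which overlapped, and the interaction was -2.70 ± 0.32 (adjusted p = 1.61e-05). Slc2a6, a lysosomal hexose transporter, fell in macrophages by 2.20 ± 0.41 (adjusted p = 0.000844), and Mpi, which links mannose to glycolysis, fell in microglia by 1.18 ± 0.17 (adjusted p = 3.62e-05).

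Bsg encodes basigin, the chaperone that carries MCT1 and MCT4 to the cell surface. It was at 998, 871 and 856 in WT and 602, 715 and 805 in KO microglia, a fall of 0.37 ± 0.11 (adjusted p = 0.0115). In macrophages Bsg rose from 472, 487 and 477 in WT to 808, 666 and 699 in KO libraries (0.59 ± 0.11, adjusted p = 0.000649), and the effects differed by 0.96 ± 0.15 (adjusted p = 0.000248). Emb, embigin, another chaperone of lactate transporters, rose in macrophages from 23.7, 21.6 and 22.2 to 131, 109.9 and 119.9 (2.37 ± 0.30, adjusted p = 2.88e-05). It was at 0.881, 0 and 1.03 in WT and 33.4, 32.4 and 41.8 in KO microglia.

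Of the 16 tested genes of pyruvate and lactate handling, 2 were called higher and 4 lower in KO microglia (12.5% and 25%, beside 21.9% and 20.6% of all tested genes), and 3 higher and 2 lower in KO macrophages (18.8% and 12.5%, beside 16% and 15.4%). Slc16a7, the monocarboxylate transporter MCT2, rose in microglia by 0.75 ± 0.12 (adjusted p = 0.000123). It was also called higher in KO macrophages, with means of 209 in WT and 265 in KO libraries, which overlapped. Pck2, mitochondrial phosphoenolpyruvate carboxykinase, fell in both origins, by 0.45 ± 0.14 and 0.41 ± 0.14 (adjusted p = 0.0161 and 0.0344). Among the 12 tested genes of glycolytic side steps, 3 were called higher and 1 lower in KO microglia (25% and 8.33%) and 2 higher in KO macrophages (16.7%), beside the same shares of all genes. Gpd2, the mitochondrial glycerol-phosphate dehydrogenase that passes glycolytic electrons to the respiratory chain, rose by 1.63 ± 0.15 in microglia and by 0.53 ± 0.15 in macrophages (adjusted p = 2.66e-07 and 0.0131), a larger rise in microglia (interaction -1.10 ± 0.21, adjusted p = 0.00124). Adpgk, the ADP-dependent glucokinase, rose by 0.88 ± 0.16 and 1.21 ± 0.16 (adjusted p = 0.000275 and 3.18e-05).

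Of the 10 tested genes on the list of other pentose phosphate and NADPH genes, 1 was called higher and 1 lower in KO microglia. In KO macrophages 3 were called higher. These counts are 10% each way in microglia, beside 21.9% and 20.6% of all tested genes, and 30% in macrophages, beside 16%. Not every gene on this list supplies NADPH. Idh1, cytosolic NADP-dependent isocitrate dehydrogenase, rose by 0.50 ± 0.18 in microglia and by 1.22 ± 0.18 in macrophages (adjusted p = 0.0306 and 8.16e-05). H6pd, the dehydrogenase of the endoplasmic reticulum that starts the same pathway as G6pdx, rose in macrophages by 0.83 ± 0.12 (adjusted p = 8.29e-05), and its effect differed from that in microglia by 1.14 ± 0.17 (adjusted p = 0.000152). Txnrd1, thioredoxin reductase, fell in microglia (-0.51 ± 0.15, adjusted p = 0.0126) and rose in macrophages (0.51 ± 0.15, adjusted p = 0.0175). Of 11 glycogen genes, 2 were called higher and 1 lower in KO microglia and 1 in each direction in KO macrophages, or 18.2%, 9.09%, 9.09% and 9.09%, beside 21.9%, 20.6%, 16% and 15.4% of all tested genes. Pygb, brain-type glycogen phosphorylase, rose in both, by 0.89 ± 0.13 and 1.00 ± 0.13 (adjusted p = 5.55e-05 and 4.27e-05).

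Of the 17 tested genes of the hypoxia response, 8 were called lower and 3 higher in KO microglia, with a median of -0.26. These are 47.1% and 17.6%, beside 20.6% and 21.9% of all tested genes. In KO macrophages 1 was called lower and 4 higher (5.88% and 23.5%, beside 15.4% and 16%), with a median of 0.00. Their interaction was called for 5 (29.4%), all with a higher KO minus WT difference in macrophages, beside 13% of all tested genes called in that direction. The 8 that fell include P4ha1, a collagen prolyl hydroxylase and HIF-1 target (-1.08 ± 0.09, adjusted p = 1.34e-07), and Vhl, whose product marks HIF for degradation. Vhl was at 161, 167 and 172 in WT and 36.3, 43.3 and 50.6 in KO microglia (-1.93 ± 0.17, adjusted p = 1.41e-07), and the fall was larger than in macrophages by 1.31 ± 0.24 (adjusted p = 0.000723). Ddit4, a stress-induced inhibitor of mTORC1 and also a HIF-1 target, rose in both origins, by 1.82 ± 0.41 and 2.95 ± 0.41 (adjusted p = 0.00215 and 6.61e-05). The 3 genes of this list called higher in KO microglia were P4ha2, Ddit4 and Epas1, beside the 8 called lower. Any part of HIF-1 in these differences was not tested.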

How the data were processed

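RNA-seq of 12 libraries was taken as 1 table of log2 values deposited by the authors. The tools named for the series are STAR, bcl2fastq and CASAVA, with build GRCm38, per the submitters' processing notes. No source used here names the counter, annotation release or strand setting, so reads of genes that overlap could not be assigned with certainty. The values turned back into whole reads per library for 100% of 310848 values (tolerance 0.01 reads), which makes the deposited unit log2(normalized count + 1).

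Symbols and exon lengths came from GENCODE M21. Genes with at least 10 normalized counts in at least 3 libraries (12519) were fitted with limma 3.58.1 in R 4.3.3 (eBayes with trend, 4 group means), with two-sided Benjamini-Hochberg adjusted p over all of them and a threshold of 0.05. The pipeline was tested on simulated data. Alternatives were limma voom on whole reads, pseudocounts of 0.5 and 5, 2 other scalings, no filter, log2 Ddx3y as a covariate and each library left out. From each list and comparison, up to 3 called genes with the largest difference and a mean of at least 100 in the higher group could be named. Genes and lists were chosen with earlier results of these data known. Sequences came from RefSeq. Replicate numbers follow the order of deposit. Depth was 2615404 to 6364994 reads in genes.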

Additional observations from a re-analysis of the deposited data

Results flagged for a closer look

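The KO effect of 20 of the 30 tested genes differed between macrophages and microglia by limma's test of the difference itself (adjusted p below 0.05). The values are the KO minus WT log2 difference in macrophages minus that in microglia, ± SE, with 3 libraries in each of the 4 groups. For the hexokinases the difference was 0.87 ± 0.16 for Hk1 and 0.83 ± 0.12 for Hk2. In upper glycolysis and its control it was -0.68 ± 0.13 for Gpi1, 1.04 ± 0.15 for Pfkl, -2.06 ± 0.40 for Pfkp, 1.08 ± 0.18 for Aldoa, 1.09 ± 0.26 for Tpi1, 0.77 ± 0.18 for Pfkfb3 and -0.44 ± 0.15 for Pfkfb4. In lower glycolysis it was 0.80 ± 0.27 for Gapdh, 0.65 ± 0.21 for Eno1 and 0.84 ± 0.17 for Pkm. Lactate production and transport gave 0.93 ± 0.21 for Ldha, 1.62 ± 0.36 for Slc16a1 and 2.95 ± 0.41 for Slc16a3, and the pyruvate dehydrogenase step 1.54 ± 0.14 for Pdk1 and 0.76 ± 0.18 for Pdha1. The pentose phosphate genes gave 0.65 ± 0.18 for Tkt and 0.71 ± 0.21 for Taldo1, and the hypoxia factor gave 0.74 ± 0.17 for Hif1a. Of these, Gpi1, Pfkp and Pfkfb4 had the lower difference in macrophages, and the other 17 had the higher one. The calls of Eno1, Gapdh, Pfkfb4 and Taldo1 were lost in several alternative settings.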

How the results depend on the processing

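Over the 30 tested genes, 5 comparisons and 19 alternatives, 2713 single values kept their side of the threshold. Another 111 lost and 26 gained the call, and 0 called values reversed. Values not called could change sign, as for Pfkm between KO and WT microglia (-0.10 to 0.23). The number called higher between KO macrophages and KO microglia was 6 in place of 11 with log2 Ddx3y as a covariate, and the number of other pathway genes called there was 5 in place of 10. Over all tested genes, 496 were called higher and 408 lower there, in place of 682 and 632. Over the 12 fits that each left out 1 library, the numbers called higher and lower ranged from 4 to 5 and 13 to 15 in KO microglia, from 9 to 13 and 5 to 7 in KO macrophages, from 4 to 4 and 12 to 16 between WT origins, from 6 to 11 and 1 to 1 between KO origins, and from 14 to 19 and 2 to 3 for the interaction. Other pathway genes called ranged from 25 to 34, 15 to 22, 24 to 40, 5 to 12 and 16 to 22 in the same order. Where 1 library was left out, its group's 2 libraries shared the spread estimated over all groups. No paired analysis was possible because replicate numbers only follow the order of deposit. Low counts limited Aldoc, Bnip3, Pfkm, WT microglial Pfkp, KO macrophage Ldhb and KO microglial Slc16a3, for which a library's value rested on few reads. The same held for Slc2a5 outside WT microglia. All tests rest on 3 pools a group.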
